A study of Mus musculus with 24 samples.

Results

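The genes of glycolysis and of the hypoxia response were followed through the hindlimb buds of Nipbl+/- and wild type mouse embryos. The set held 43 listed genes, of which 41 were measured among the 19937 genes of the arrays: 13 of 15 glycolytic enzymes, 5 of 5 genes of the pyruvate dehydrogenase switch (the Pdk kinases and Pdha1), 4 of 4 glucose and lactate transporters, 6 of 6 Hif factors and regulators, and 13 of 13 Hif targets outside glycolysis. A gene was measured where a probe set carried its symbol and no other, and where several did, the probe set was selected on brightness, as the one with the highest mean log2 intensity over all 24 arrays. Gpi1 and Eno1 had no such probe set and were not analysed here. The list itself was chosen by function with genotype differences of the same arrays in view, among them those of Pdk1 and Slc16a3, so its counts describe these genes and are not independent evidence of a direction.

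Left and right hindlimb buds of an embryo were pooled, and each embryo's RNA was measured on 1 Affymetrix whole-transcript array (Mouse Gene 1.0 ST). The 12 Nipbl+/- embryos (RRS strain) were heterozygous for a mutant allele of Nipbl, the cohesin loading factor whose haploinsufficiency is the most common cause of Cornelia de Lange Syndrome. The 12 wild type embryos carried 2 intact alleles. All embryos were at E10.5, somite-staged and untreated, and the mutation was present in every cell of the mutant embryo.

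Glycolysis splits glucose into pyruvate in the cytosol, and its lower steps return ATP. Pyruvate then either enters the mitochondrion through the pyruvate dehydrogenase complex, which the Pdk kinases switch off, or is reduced to lactate and exported. Hif factors, which are destroyed in oxygen after hydroxylation by the Egln enzymes, raise many glycolytic genes and other targets when oxygen is scarce, and the limb bud of this stage is a fast growing tissue whose vessels are still forming.

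Nipbl itself had log2 intensities between 9.54 and 9.97 in Nipbl+/- embryos and between 10.32 and 10.72 in wild type embryos (ratio 0.630, adjusted p = 2.42e-09 from limma). The tissue label was checked against the hindlimb genes Pitx1 and Tbx4, which were bright (medians 11.46 and 11.68 in Nipbl+/- and 11.53 and 11.70 in wild type), and against the forelimb gene Tbx5, which was dim (5.63 in Nipbl+/- and 5.86 in wild type). By Xist and Y-linked genes, 9 mutant embryos were male and 3 female, against 4 male and 8 female wild type embryos. Nipbl+/- replicate 2 and wild type replicate 3 had the lowest array weights. In tissue RNA, fewer cells of a type and less RNA per cell cannot be told apart.

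Of the 41 measured genes, 7 rose in Nipbl+/- hindlimb buds and 0 fell, at a Benjamini-Hochberg adjusted p under 0.05 from limma. These were the glycolytic enzymes Pfkl, Aldoa, Pgk1 and Pgam1, the kinase Pdk1, the lactate exporter Slc16a3 and the mitophagy receptor Bnip3, with mutant to wild type ratios between 1.11 and 1.23. The 7 genes were 17.1% of those measured, whereas 0.286% of all genes were called higher and 0.527% were called lower. At an unadjusted p under 0.05, 15 of the 41 were higher (36.6%) and 1 was lower, against 4.13% of all genes higher and 5.14% lower. The ratio was above 1 for 30 of the 41 (73.2%), against 46.5% of all genes, and the median log2 difference was 0.07 over the 41 genes and -0.0049 over all genes. With embryo sex as a covariate the calls of Aldoa, Pgam1 and Bnip3 were lost and 4 genes remained called, and within male or within female embryos alone 0 were called, where 1 and 7 of all genes were. The part of embryo sex in the result was not tested beyond these fits. In a fit with a term for sex, 0 of the 41 genes differed by sex at an adjusted p under 0.05. Sex and genotype were unbalanced, with 9 mutant embryos male and 8 wild type embryos female, which limits what that count can show. Without the 2 arrays of lowest weight 7 of the set were called higher, with Pgam1 not among them (adjusted p = 0.0629).

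**Figure D1:**
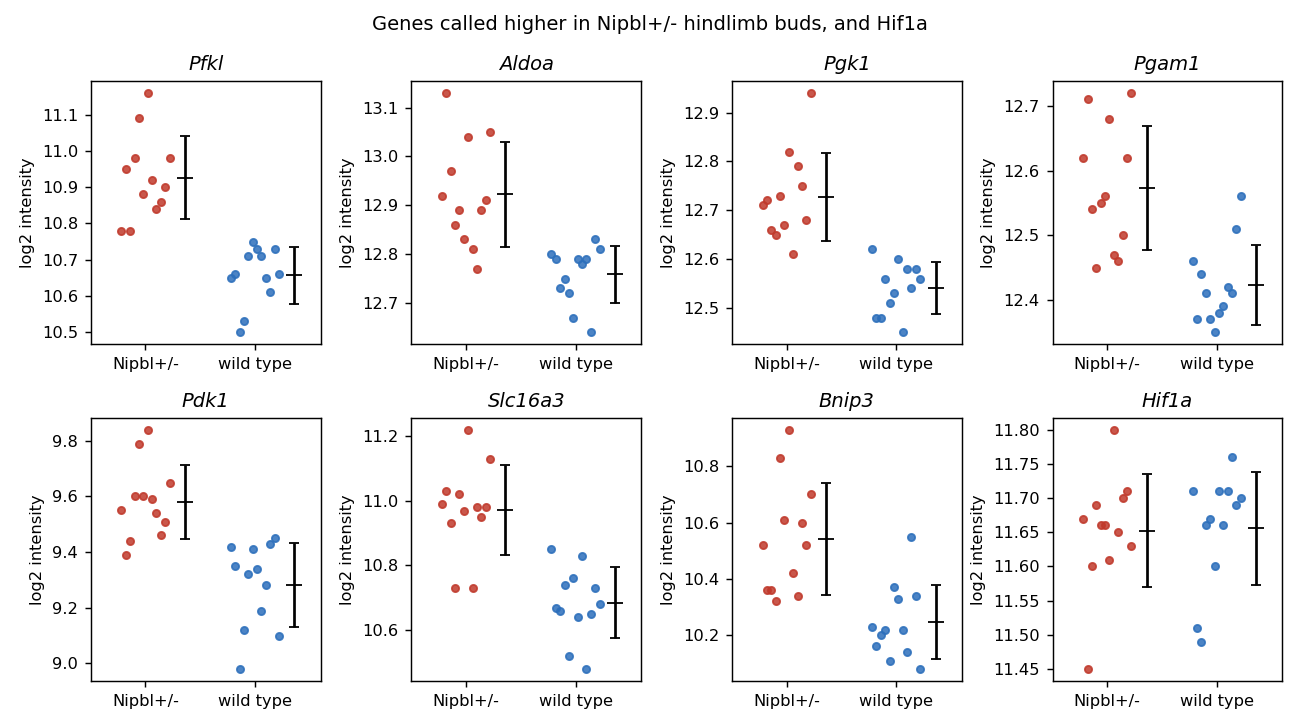
Log2 intensity (vertical axes, each panel on its own scale) of the 7 genes called higher and of Hif1a in each of 12 Nipbl+/- embryos (red, left) and 12 wild type embryos (blue, right), with the mean and SD in black beside the points. The genotypes do not overlap for Pfkl, overlap by a narrow margin for Pgk1, and overlap throughout for Hif1a.

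The committed step of glycolysis is the phosphorylation of fructose 6-phosphate by phosphofructokinase, and its liver-type subunit, Pfkl, separated the genotypes. Log2 intensities of Pfkl ran from 10.78 to 11.16 in Nipbl+/- embryos (median 10.91) and reached 10.75 at the highest in wild type embryos (median 10.66, mean 10.66 ± 0.0783, SD, n = 12). The lowest mutant embryo thus lay above the highest wild type embryo. The ratio was 1.21 (log2 difference 0.27, standard error 0.042, adjusted p = 0.000768), and Pfkl ranked 16 by p among all genes. The ratio was 1.23 within males and 1.19 within females.

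The other subunits of phosphofructokinase had different values. The platelet-type subunit Pfkp stood at 6.61 to 7.0 in Nipbl+/- (median 6.79) and 6.32 to 6.84 in wild type (median 6.59). All 12 mutant embryos lay above the wild type mean, with overlap, and the gene stood just outside the threshold (ratio 1.16, log2 difference 0.22, adjusted p = 0.0547). Its ratio was 1.33 within males and 1.02 within females, and that difference between the sexes did not pass adjustment (interaction adjusted p = 0.509). Pfkp was dim, with a mean intensity at percentile 36.1 of all genes, so its ratios say little about the transcript. The fit without the dimmest 25% of genes kept it, and there it was called (adjusted p = 0.0419). Over the alternative fits with both sexes its adjusted p ran from 0.0196 to 0.178, so it was called in some and not in others. The muscle-type subunit Pfkm had a ratio of 1.0, with a 95% interval of 0.955 to 1.06. Pfkfb3 and Pfkfb4, which make the activator fructose 2,6-bisphosphate, had ratios of 1.05 and 1.03 and did not pass the test.

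Upstream of this step, the hexokinases trap glucose in the cell. Hk2, the form known as a Hif target, ran from 9.11 to 9.48 in Nipbl+/- and from 8.84 to 9.49 in wild type, a ratio of 1.08 that did not pass (adjusted p = 0.657). The brightest probe set of Hk1, the housekeeping form, had a ratio of 0.965 (adjusted p = 0.847), and its dimmer one 0.961. Their mean log2 intensities were far apart, at 13.28 and 9.22. By identifier, the brighter one falls among probe sets of chromosome 14 genes, although Hk1 is on chromosome 10. Whether it measures Hk1 itself was not tested, and it enters the mean of the enzymes given below.

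Below the committed step, 3 of the 5 measured enzymes from aldolase to phosphoglycerate mutase rose. Aldoa, the aldolase that cleaves fructose 1,6-bisphosphate, ran from 12.77 to 13.13 in Nipbl+/- (median 12.90) and from 12.64 to 12.83 in wild type (median 12.78). Of the mutant embryos, 10 lay above the highest wild type embryo. The ratio was 1.12 (log2 difference 0.17, standard error 0.0385, adjusted p = 0.0326, and 0.0878 with sex as a covariate).

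Pgk1, the X-linked phosphoglycerate kinase that makes the first ATP of the pathway, ran from 12.61 to 12.94 in Nipbl+/- (median 12.72) and from 12.45 to 12.62 in wild type (median 12.55). Only the ends of the ranges touched, since 11 mutant embryos exceeded every wild type embryo. The ratio was 1.14 (log2 difference 0.19, standard error 0.0345, adjusted p = 0.00374), with 1.13 within males and 1.18 within females.

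Pgam1, the phosphoglycerate mutase of the next step, ran from 12.45 to 12.72 in Nipbl+/- (median 12.55) and from 12.35 to 12.56 in wild type (median 12.41). The ranges overlapped, although all 12 mutant embryos lay above the wild type mean. The ratio was 1.11 (log2 difference 0.15, standard error 0.0367, adjusted p = 0.0447, and 0.104 with sex as a covariate). Leaving out 1 embryo ended the call of Pgam1 in 17 of 24 fits and that of Aldoa in 9, with adjusted p up to 0.0892 and 0.0673. By identifier, the only probe set of Pgam1 falls among those of chromosome 7 genes, although Pgam1 is on chromosome 19. Whether it measures Pgam1 itself was not tested.

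Between Aldoa and Pgk1 stands the isomerase Tpi1, which ran from 12.15 to 12.50 in Nipbl+/- and from 12.09 to 12.29 in wild type (ratio 1.10, adjusted p = 0.115). Of the mutant embryos, 11 lay above the wild type mean and 8 above the highest wild type embryo. Aldoc, the brain-type aldolase, had a ratio of 1.10 and a wide spread (adjusted p = 0.656). Ldha, which turns pyruvate into lactate, ran from 13.41 to 13.61 in Nipbl+/- and from 13.30 to 13.58 in wild type. Its ratio of 1.05 had a 95% interval of 0.996 to 1.10 and did not pass (adjusted p = 0.604).

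As a group, 4 of the 13 enzymes were called higher, 12 had a ratio above 1, and the median log2 difference was 0.13. The mean of the 13 enzymes in each embryo, set against the wild type mean, ran from 0.05 to 0.22 in Nipbl+/- (median 0.10) and from -0.13 to 0.07 in wild type (median 0.02). All 12 mutant embryos were above 0, and 10 were above the highest wild type embryo. By sex, the mean was 0.121 in mutant males, against -0.0482 in wild type males, and 0.0992 in mutant females, against 0.0241 in wild type females.

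Hif factors bind the hypoxia response element, whose core reads ACGTG or GCGTG. The sequence before the start of transcription is shown for 1 called gene of each step with calls, to place that motif beside the values. Each line gives 160 bases upstream of the start, 5′ to 3′ along the gene, from RefSeq on GRCm38.p6, with every match of ACGTG or GCGTG or of their reverse complements CACGT and CACGC in capitals.
Pgk1, chrX:106186940-106187099, plus strand: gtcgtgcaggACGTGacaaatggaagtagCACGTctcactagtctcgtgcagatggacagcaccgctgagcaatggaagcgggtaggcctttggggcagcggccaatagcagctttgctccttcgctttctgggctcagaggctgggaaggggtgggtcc
Pdk1, chr2:71873064-71873223, plus strand: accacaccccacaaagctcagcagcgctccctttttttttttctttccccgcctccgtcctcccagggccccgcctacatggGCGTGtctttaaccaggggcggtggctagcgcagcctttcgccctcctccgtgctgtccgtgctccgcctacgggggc
Slc16a3, chr11:120948907-120949066, plus strand: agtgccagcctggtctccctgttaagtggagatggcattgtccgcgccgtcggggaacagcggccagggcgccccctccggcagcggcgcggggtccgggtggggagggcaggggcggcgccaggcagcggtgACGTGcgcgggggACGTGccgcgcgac
Bnip3, chr7:138909507-138909666, minus strand: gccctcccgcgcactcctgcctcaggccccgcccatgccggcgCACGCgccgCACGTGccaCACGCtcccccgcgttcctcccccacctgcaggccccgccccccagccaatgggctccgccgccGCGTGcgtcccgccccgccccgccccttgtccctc

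The Pgk1 stretch held matches beginning at -150 and -131 relative to the start, that of Pdk1 at -78, and that of Slc16a3 at -27 and -14. The Bnip3 stretch held 5 matches, of which those at -108 and -107 share letters because CACGTG reads the same on both strands. Over windows of 300 bases, from 250 before the start to 50 after it, at least 1 match stood in 36 of 39 genes of the set with a window (92.3%), in 55.3% of the genes on the array with one and in 43.8% of all windows. The median GC content was 62.7% for the windows of the set and 57.5% for those of genes on the array, so the shares are not matched on base composition. The set was listed in part for being Hif targets, so a high share was built in and does not test Hif control of the called genes. All 7 called genes had a match, as did most of the set, and the genes of the set without one were Gpi1, Tpi1 and Vhl. The 39 genes include Gpi1 and Eno1, which were not measured.

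**Figure D2:**
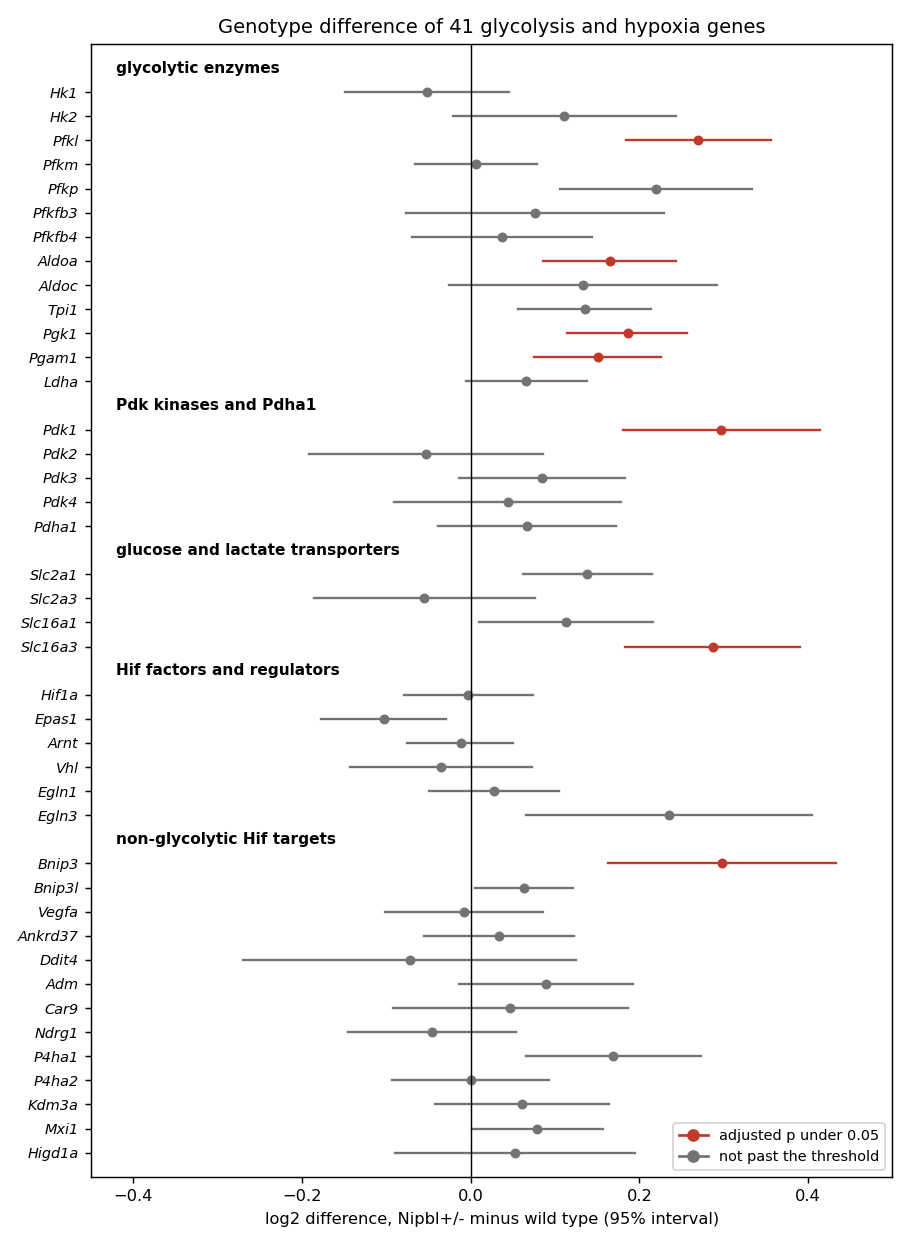
Log2 difference, Nipbl+/- minus wild type (horizontal axis), of the 41 measured genes by step (vertical axis), with 95% intervals from limma. Red marks the 7 genes at an adjusted p under 0.05, which lie between 0.15 and 0.30, and grey the 34 others, most of which cross 0.

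The mitochondrial switch showed a difference in 1 kinase. Pdk1, which phosphorylates and so inactivates pyruvate dehydrogenase, ran from 9.39 to 9.84 in Nipbl+/- (median 9.57) and from 8.98 to 9.45 in wild type (median 9.33). The ranges overlapped at their ends, with 10 mutant embryos above the highest wild type embryo. The ratio was 1.23 (log2 difference 0.30, standard error 0.0569, adjusted p = 0.00485), and it was 1.24 within males and 1.24 within females.

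The other kinases of the family did not pass the test. Pdk3, which is X-linked, had a ratio of 1.06 (95% interval 0.990 to 1.14). Pdk2 had a ratio of 0.964 (0.875 to 1.06) and the starvation-responsive Pdk4 one of 1.03 (0.939 to 1.13). Pdk4 was dim, with a mean intensity at percentile 26.0 of all genes, so its ratio says little about the transcript. Pdha1, the X-linked subunit that the kinases phosphorylate, had a ratio of 1.05 (adjusted p = 0.784). The mean of the 5 genes ran from -0.02 to 0.27 in Nipbl+/- and from -0.18 to 0.09 in wild type, so the groups overlapped.

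Slc16a3, the lactate exporter of strongly glycolytic cells, rose. It ran from 10.73 to 11.22 in Nipbl+/- (median 10.98) and from 10.48 to 10.85 in wild type (median 10.68). Of the mutant embryos, 10 exceeded every wild type embryo. The ratio was 1.22 (log2 difference 0.29, standard error 0.0505, adjusted p = 0.00209), with 1.28 within males and 1.17 within females.

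Slc2a1, the main glucose importer of embryonic tissue, stood outside the threshold. It ran from 11.86 to 12.09 in Nipbl+/- and from 11.73 to 11.99 in wild type (ratio 1.10, adjusted p = 0.0839), with 11 mutant embryos above the wild type mean. Slc16a1, the broadly expressed monocarboxylate carrier, had a ratio of 1.08 (adjusted p = 0.466), and the glucose importer Slc2a3 one of 0.963 (adjusted p = 0.900). Of the 4 transporters 3 had a ratio above 1, and their mean in each embryo ran from -0.01 to 0.23 in Nipbl+/- and from -0.11 to 0.10 in wild type.

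The factors that sense oxygen showed no call in either direction, 0 of 6, and Egln3 (higher) and Epas1 (lower) alone had an unadjusted p under 0.05. Hif1a, the oxygen-labile subunit, was at 11.65 ± 0.0811 in Nipbl+/- and 11.66 ± 0.0818 in wild type (SD, n = 12 each), a ratio of 0.998 with a 95% interval of 0.947 to 1.05. Its partner Arnt had a ratio of 0.991 (0.949 to 1.04), Vhl, which marks hydroxylated Hif for destruction, 0.976, and the hydroxylase Egln1 1.02. An array measures transcripts, and Hif is set mainly through protein stability, which these data do not measure. Epas1, the second Hif alpha subunit, had a ratio of 0.931 (log2 difference -0.10, adjusted p = 0.248), and 10 of 12 mutant embryos were below the mean of wild type. Egln3, a hydroxylase that is itself a Hif target, had a ratio of 1.18 (adjusted p = 0.258), and 11 of 12 mutant embryos were above the mean of wild type.

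**Figure D3:**
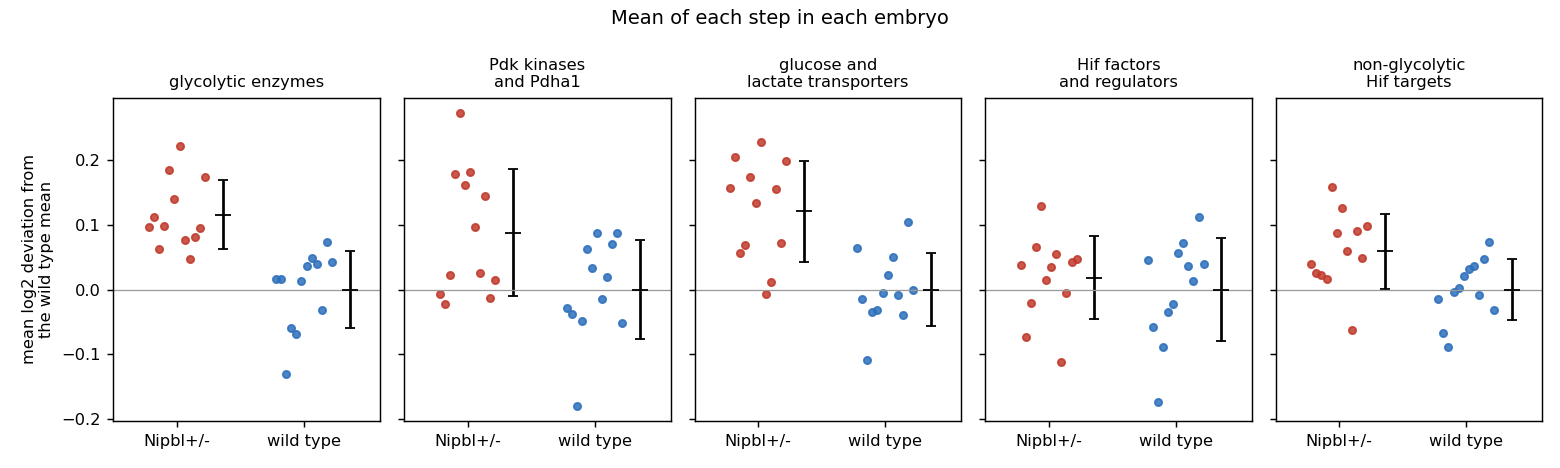
Mean log2 deviation from the wild type mean (vertical axis) over the genes of each step in each of 12 Nipbl+/- (red, left) and 12 wild type (blue, right) embryos, with mean and SD in black. For glycolytic enzymes 10 mutant embryos lie above the highest wild type embryo, and for Hif factors and regulators 1 does.

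Among the 13 Hif targets outside glycolysis, 1 rose. Bnip3, which directs mitochondria to autophagy, ran from 10.32 to 10.93 in Nipbl+/- (median 10.52) and from 10.08 to 10.55 in wild type (median 10.22). All 12 mutant embryos lay above the wild type mean, and 5 above the highest wild type embryo. The ratio was 1.23 (log2 difference 0.30, standard error 0.0660, adjusted p = 0.0217), and it was 1.20 within males and 1.20 within females. The adjusted p was 0.115 with sex as a covariate and 0.0778 with a t statistic on linear intensities. A second, dimmer probe set of Bnip3 ran from 9.41 to 9.99 in Nipbl+/- and from 8.99 to 9.52 in wild type, and the ratio there was 1.35 (log2 difference 0.44, standard error 0.0654, adjusted p = 0.000442). By identifier, the brighter probe set falls among those of chromosome 14 genes, although Bnip3 is on chromosome 7, where the dimmer one falls. Whether the brighter one measures Bnip3 itself was not tested, and the covariation with Pdk1 given below used it.

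Hif targets of the vessel and acid response did not pass the test. Vegfa, the growth factor of vessels, had a ratio of 0.995 (95% interval 0.932 to 1.06), Adm, a vasodilator peptide, 1.06 (0.990 to 1.14), and Car9, a carbonic anhydrase, 1.03 (0.938 to 1.14). Median log2 intensities were 9.53 in Nipbl+/- and 9.50 in wild type for Vegfa, 6.61 in Nipbl+/- and 6.60 in wild type for Adm, and 5.90 in Nipbl+/- and 5.84 in wild type for Car9. Adm and Car9 were dim, with mean intensities at percentiles 34.9 and 23.4 of all genes, so their ratios say little about the transcripts. P4ha1, a collagen prolyl hydroxylase, ran from 9.86 to 10.36 in Nipbl+/- and from 9.82 to 10.14 in wild type (ratio 1.12, adjusted p = 0.145), with 9 mutant embryos above the highest wild type embryo. Its relative P4ha2 had a ratio of 1.0. Bnip3l, the second mitophagy receptor, had a ratio of 1.04 (adjusted p = 0.481), and all 12 mutant embryos exceeded its mean in wild type. The remaining targets, Ankrd37, Ddit4, Ndrg1, Kdm3a, Mxi1 and Higd1a, had ratios between 0.951 and 1.06. Over the 13 targets the median log2 difference was 0.05, and 9 had a ratio above 1. Their mean in each embryo ran from -0.06 to 0.16 in Nipbl+/- and from -0.09 to 0.07 in wild type, which overlapped.

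Other genes of the same pathways were counted beside the set. Of 17 other glycolytic genes, 8 enzymes of the pentose phosphate pathway, 14 other sugar and monocarboxylate transporters, 10 other genes of pyruvate dehydrogenase and the mitochondrial pyruvate carrier, and 29 other Hif targets, 0 were called in either direction, where 0.286% of all genes were called higher and 0.527% lower. With p unadjusted and under 0.05, the other glycolytic genes held 2 higher and 0 lower, the pentose phosphate enzymes 2 higher and 1 lower, the transporters 1 higher and 0 lower, the pyruvate dehydrogenase genes 0 higher and 2 lower, and the other Hif targets 6 higher and 4 lower, where the shares over all genes were 4.13% higher and 5.14% lower. Pkm, the pyruvate kinase that ends glycolysis, had a ratio of 1.07 (adjusted p = 0.204). Ak4, a mitochondrial adenylate kinase and Hif target, had a ratio of 1.19 (adjusted p = 0.0604). The brighter probe set of Ak4, which gave this ratio, falls by identifier among those of chromosome 2 genes. Ak4 is on chromosome 4, where its dimmer probe set falls. Whether the brighter one measures Ak4 itself was not tested. Pdp1, the phosphatase that undoes the action of the Pdk kinases, had a ratio of 0.876 (adjusted p = 0.0628), and all 12 mutant embryos were under its mean in wild type. Among 12 other Hif regulators, Cited2 fell. Cited2 competes with Hif1a for the coactivators p300 and CBP and is itself induced by Hif. It ran from 10.96 to 11.14 in Nipbl+/- (median 11.06) and from 11.14 to 11.36 in wild type (median 11.23). Each mutant embryo lay below every wild type embryo (ratio 0.880, log2 difference -0.18, standard error 0.0316, adjusted p = 0.00171).

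Markers of other cells that a limb bud can hold were compared in the same fit. None of the 8 limb mesenchyme, 8 endothelial, 7 erythroid, 8 macrophage or 4 muscle precursor markers was called in limma, where 0.286% of all genes were called higher and 0.527% lower. With p unadjusted and under 0.05 there were 1 higher mesenchyme marker, 1 higher muscle precursor marker, 2 higher ectoderm markers and 4 lower macrophage markers of 8, against 4.13% of all genes higher and 5.14% lower. The summed intensity of the erythroid markers was 27220 to 36670 in Nipbl+/- and 28850 to 37370 in wild type, and that of the endothelial markers 6983 to 8669 in Nipbl+/- and 7268 to 8698 in wild type. Of 9 ectoderm markers, Krt5, a keratin of basal epidermis, fell (ratio 0.806, adjusted p = 0.00171), while 5 had a ratio above 1, among them Epcam (1.11, adjusted p = 0.254) and the apical ridge gene Sp8 (1.09, adjusted p = 0.487). Of 4 nerve and Schwann cell markers, Erbb3, a neuregulin receptor, rose (ratio 1.19, adjusted p = 0.0499), a call that was lost with sex as a covariate (adjusted p = 0.169) and on leaving out single embryos (adjusted p up to 0.0978). The 8 macrophage markers all had a ratio below 1, the lowest 0.866, and their summed intensity was 914.4 to 1020 in Nipbl+/- and 930.2 to 1117 in wild type. The part of these markers in the glycolytic values was not tested.

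Within a genotype, embryos that were high in Pdk1 were also high in Pfkl and Bnip3. Deviations from the genotype means were correlated over the 24 embryos between Pdk1 and each of the 40 other genes, with permutation within genotype (two-sided, Benjamini-Hochberg over 40 relations). For Pfkl, r was 0.70 (permutation p = 0.00017, adjusted p = 0.0058) and rho 0.63 (permutation p = 0.00146, adjusted p = 0.0292), and r was 0.55 without the 2 embryos farthest in Pdk1. For Bnip3, r was 0.66 (permutation p = 0.00029, adjusted p = 0.0058) and rho 0.66 (permutation p = 0.0005, adjusted p = 0.02), and r was 0.64 without those 2 embryos. For Pfkl, r was 0.78 within Nipbl+/- alone and 0.64 within wild type alone, and for Bnip3 it was 0.79 and 0.54. These values within 1 genotype were not tested. Pfkfb4 passed by r (0.61, permutation adjusted p = 0.0321) and not by rho (0.47, permutation adjusted p = 0.128). With the spread of each array taken out, r was 0.38 for Pfkfb4, 0.67 for Pfkl and 0.63 for Bnip3. Tpi1 stood just outside the threshold (r = 0.55, permutation adjusted p = 0.0539), and its r was 0.66 with that spread taken out. The other called genes varied less with Pdk1, with r of 0.36 for Pgk1, 0.23 for Slc16a3, -0.06 for Aldoa and -0.03 for Pgam1. All points share their arrays, and the median r of Pdk1 was 0.30 over the 40 genes, or 0.11 with the spread of each array taken out, and 0.019 over all genes. Pfkl was the 82nd gene most like Pdk1 among all genes and Bnip3 the 230th.

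**Figure D4:**
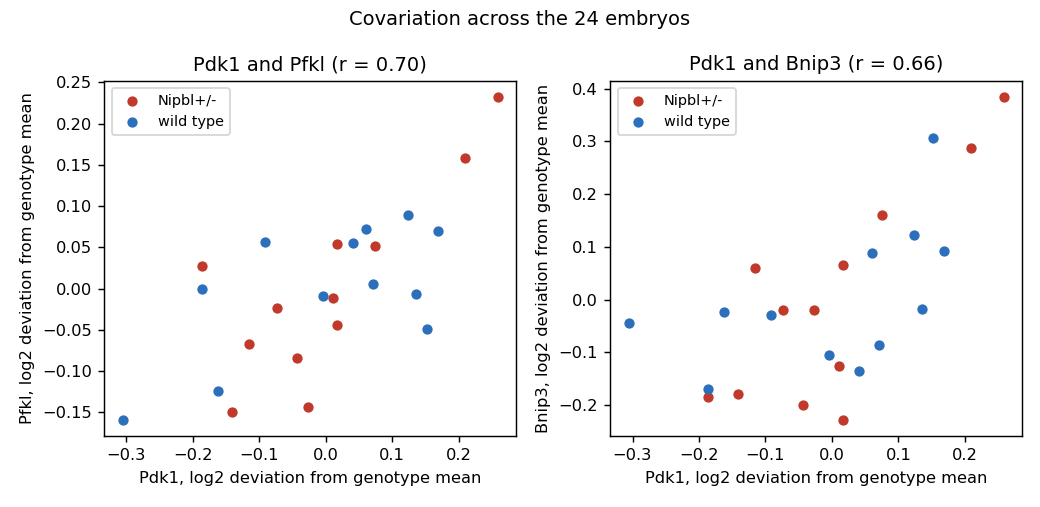
Deviation of Pfkl (left) and Bnip3 (right) from the genotype mean (vertical axes, log2) against that of Pdk1 (horizontal axis, log2) in 12 Nipbl+/- (red) and 12 wild type (blue) embryos. Points of both genotypes rise together, with r = 0.70 for Pfkl and r = 0.66 for Bnip3.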

How the data were processed

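Hindlimb bud RNA of 12 Nipbl+/- and 12 wild type embryos was measured, each embryo on 1 Affymetrix array, and precision is limited by the number of arrays. The deposited values are log2 intensities per probe set. The authors used GenePattern's Expression File Creator, with RMA named in the submitters' processing notes. RMA removes background, quantile-normalizes and summarises probes, so a shift common to most genes could be hidden. Its version was not given in the sources used here. Array medians ran from 7.24 to 7.39, and 0 arrays were identical.

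Of 28159 probe sets, 21640 had 1 gene symbol, 1321 several and 5198 none listed, and 21553 matched the RefSeq genes of GRCm38.p6. The brightest probe set was used for the 954 genes that had several. The brightest probe set of Hk1 is annotated through 1 accession only. Probe sets were assigned by gene symbol, and their own genomic positions were not checked. Genotypes were compared with limma 3.58.1 in R 4.3.3, Nipbl+/- minus wild type, over 19937 genes, with calls at an adjusted p under 0.05 (Benjamini-Hochberg); intervals are 95% intervals of that fit. Members and lists were chosen with earlier results of these data known. All listed genes are given, and of the other pathway and marker lists every called gene and up to 2 per direction with the smallest p could be named. Tested on simulated data for the same 19937 genes and embryo numbers, the fit recovered 48% of 50 genes changed by a log2 value of 0.2, 90% at 0.3, 98% at 0.45 and 100% at 0.65, with 8 false calls. Alternatives covered probe set, dim genes, variance model, linear scale, array weights, replicate number, embryo sex, array median and spread, residual structure, threshold and single embryos. Fits within each sex, without the 2 arrays of lowest weight, with dimmer probe sets, and the covariation with array spread taken out were chosen after seeing the data. Plots were made in Python 3.11.15 (matplotlib 3.10.9). The paper describes the groups as stage-matched littermates. The labels number the embryos in both genotypes, name no litters, and do not say whether these numbers pair the embryos.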

Additional observations from a re-analysis of the deposited data

How the results depend on the processing

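Pfkl, Pgk1, Pdk1 and Slc16a3 kept their calls under every alternative over all embryos. The count of genes of the set called higher was 7, and it was 4 with sex as a covariate, 11 with the array interquartile range and 11 with the first residual component as a covariate, 0 within male and 0 within female embryos, and 5 to 8 on leaving out 1 embryo; 0 were called lower in each fit. Over all genes, 162 were called, against 281 with array weights, 487 with the interquartile range, 515 with the residual component, 1 within male and 7 within female embryos, 253 at an adjusted p under 0.1, and 113 to 197 on leaving out 1 embryo. Whether the numbers of the labels pair the embryos is not stated. Same-numbered embryos had correlations from -0.355 to 0.282, and 1 embryo was best matched by its own number. These correlations are over whole arrays and share their spread, so they cannot decide pairing by litter. With replicate number as a block 6 of the set and 169 of all genes were called in limma, with Pgam1 lost (adjusted p = 0.0582). With the block, the permutation counted 5 relations with Pdk1, 3 positive and 2 negative (Pdk4 and Car9). Without it the count was 3 positive and 0 negative. The block leaves the 2 embryos of a number with mirror-image deviations, and the permutation within genotype treated these as separate points. Its p therefore cannot decide which relations pass with the block, and no conclusion is drawn from that count. Aldoa lost its call without Nipbl+/- replicates 1, 3, 7, 11 or 12 or wild type replicates 4, 5, 6 or 10, and Pgam1 without Nipbl+/- replicates 1, 2, 3, 5, 6, 7, 11 or 12 or wild type replicates 1, 2, 4, 5, 6, 7, 8, 9 or 10. The median log2 difference of the glycolytic enzymes was 0.133, with 0.181 within male and 0.057 within female embryos, and 0.106 to 0.142 on leaving out 1 embryo; that of the Pdk group was 0.0671 (males 0.0339, females 0.0315, leaving out 1 embryo 0.0454 to 0.0837), of transporters 0.126 (males 0.202, females 0.0752, leaving out 1 embryo 0.112 to 0.14), of Hif factors -0.00756 (males 0.0036, females -0.00158, leaving out 1 embryo -0.0197 to 0.00708) and of other Hif targets 0.052 (males 0.0291, females 0.06, leaving out 1 embryo 0.0414 to 0.0661). Among genes not called, the log2 difference changed sign within female embryos for Hk1 (0.057), Pfkm (-0.0444), Pfkfb4 (-0.0271), Pdk4 (-0.04), Hif1a (0.0374) and Mxi1 (-0.00645), within male embryos for Arnt (0.0113), Vegfa (0.0584) and P4ha2 (0.114), with sex as a covariate for Pdk4 (-0.0151), Hif1a (0.00399) and Vegfa (0.0138), with array weights for Pfkm (-0.00479), Vegfa (0.0212) and P4ha2 (0.000401), with medians set to 0 for Hif1a (0.00875), Vegfa (0.00375) and P4ha2 (0.0113), without the 2 arrays of lowest weight for Hk1 (0.00166), Pfkm (-0.0106) and Hif1a (0.000594), on linear values for P4ha2 (0.000232), with the mean of probe sets for Higd1a (-0.00466), and with the dimmer probe set for Bnip3l (-0.0156) and Higd1a (-0.0613). The cause of these changes was not tested. With 12 embryos a genotype, log2 differences of about 0.2 or less could be missed.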
